A study of Homo sapiens with 24 samples.

Results

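Protein-coding transcript levels were compared between 5 libraries labelled PNA2 and 5 PBS control libraries, all labelled 72 h, out of 24 libraries in the series. All 10 came from U2932 cells, an established human line of diffuse large B-cell lymphoma, although the tissue entry reads bone marrow. PNA2 is a gamma-modified PNA, in which the bases hang on an amide backbone in place of sugar and phosphate, and the submitters aimed it at MYC DNA. The controls are given as wild type and as treated with PBS, and the PNA2 libraries as cmyc knockdown with PNA2 added to the cells at 8 mM as the labels write it, a unit that is doubtful. No other agent or allele separates the groups in the labels. The extraction text names 48 h for every library, against the titles and the time entries, so the time of 72 h is in some doubt. The labels do not say whether replicates were separate cultures, so p-values measure the spread between these libraries, which may be technical.

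MYC is a transcription factor that pairs with MAX at E-box sequences and raises the transcription of genes for ribosome production, metabolism and cell division. It is best known in B-cell lymphoma for its translocation and amplification. MAX also pairs with the MXD proteins and MNT, which act against MYC at the same sites. The comparison asks which transcripts differ after a reagent meant to lower MYC.

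Each deposited value is a read count divided by a size factor per library, called the level below, and the change is the PNA2-labelled mean minus the PBS mean of log2(level + 1). Recovered reads came to 8.22 M to 13.28 M in the PBS libraries and 11.25 M to 13.69 M in the PNA2-labelled libraries. The leading principal component of the genes tested held 28.4% of the variance and separated the labels, with PBS libraries from -27.6 to -17.6 and PNA2-labelled libraries from 3.2 to 47.7. PNA2 replicates 4 and 5 lay nearest the controls and replicate 3 farthest. All 7 B-cell markers were detected and their summed level was 21030 to 22810 in PBS and 25570 to 30040 in PNA2-labelled libraries. The summed level of 14 T and NK cell markers was 57.52 to 93.35 and 56.74 to 100.2, with 8 of them at 0 throughout. The sums were 46.25 to 87.7 and 77.93 to 123.7 over 17 myeloid markers (6 at 0), 0 to 16 and 4.498 to 18.06 over 15 erythroid and megakaryocyte markers (8 at 0), and 127.4 to 168.5 and 143.3 to 193.5 over 13 stromal, endothelial and epithelial markers (4 at 0). None of the 9 markers of other cell types that could be tested was called with limma or edgeR, while DESeq2 called the myeloid marker AIF1 higher. Their log2 changes were 1.69 for CD3E, 1.48 for CD8A, -0.42 for CD247, 0.95 for AIF1, 0.87 for CD68, -0.96 for CD14, 0.42 for PECAM1, 0.21 for EPCAM and -1.05 for COL1A1. An unadjusted p under 0.05 with limma was found for 1 myeloid marker in each direction, AIF1 and CD14. Myeloid markers called higher numbered 1 after quantile normalization and 1 without control replicate 1 or PNA2 replicate 1. Stromal, endothelial and epithelial markers called lower numbered 1 without PNA2 replicate 2.

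Of 11985 genes tested with limma, 1448 were called higher (12.1%) and 1401 lower (11.7%) in the PNA2-labelled libraries at an adjusted p under 0.05. The median size of a called change was 0.47 on the log2 scale, and 42 called genes were over 2-fold higher and 89 over 2-fold lower. The levels of the 2 groups did not overlap in 10.0% of genes with PNA2 above and in 9.18% with PNA2 below. The split between directions depended on the scaling. When all libraries were given equal totals, the median change of all genes moved from -0.005 to -0.132, and 823 genes were called higher and 2601 lower, so that 24.0% of calls were higher against 50.8% with the deposited size factors. Directions below are relative to the deposited size factors. Counts of list members called are to be read against the shares of all genes, 12.1% higher and 11.7% lower. In the plot of change against level, ribosomal protein and mitochondrially encoded transcripts lie together above 0 at the high end, and MYC lies close to 0.

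**Figure D1:**
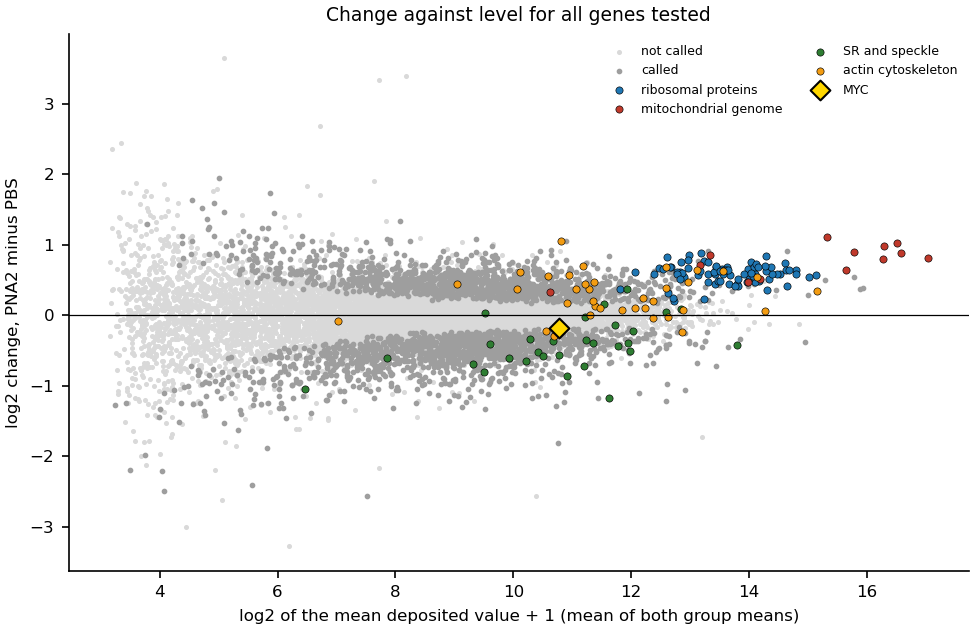
Log2 change (PNA2 minus PBS, vertical axis) against the log2 of the mean level + 1 (horizontal axis) for the 11985 genes tested, each point a gene. Ribosomal proteins (44 of 47 large and 31 of 32 small subunit genes called higher) and the 13 mitochondrially encoded genes sit above 0, 19 of 30 SR and speckle genes were called lower, and MYC (yellow diamond) is at -0.18.

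Transcript length moved with the change. Over 5 equal groups of genes ordered by their longest annotated transcript, the median log2 change was 0.25 in the shortest group, then 0.079, -0.013, -0.111 and -0.18 in the longest. Of the shortest group 29.1% were called higher and 2.84% lower, and of the longest 2.55% and 19.1%. Spearman's correlation of change with length was -0.41 across 11981 genes, which share the same 10 libraries and are not independent replicates. Relative to the control mean, the median of the shortest group minus that of the longest was -0.031, 0.044, 0.087, -0.081 and -0.006 in PBS replicates 1 to 5 and 0.413, 0.467, 0.899, 0.148 and 0.231 in PNA2-labelled replicates 1 to 5. Every PNA2-labelled library was above every PBS library, and replicate 3 stood highest. When a smooth curve of level on length was taken out of each library, 1241 genes were called higher and 1243 lower, of which 931 and 986 had the same call before. List counts with this length trend removed, with equal totals, after quantile normalization or without single libraries are given below where they differ by more than 1.5 times. The part of RNA quality in this trend was not tested.

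**Figure D2:**
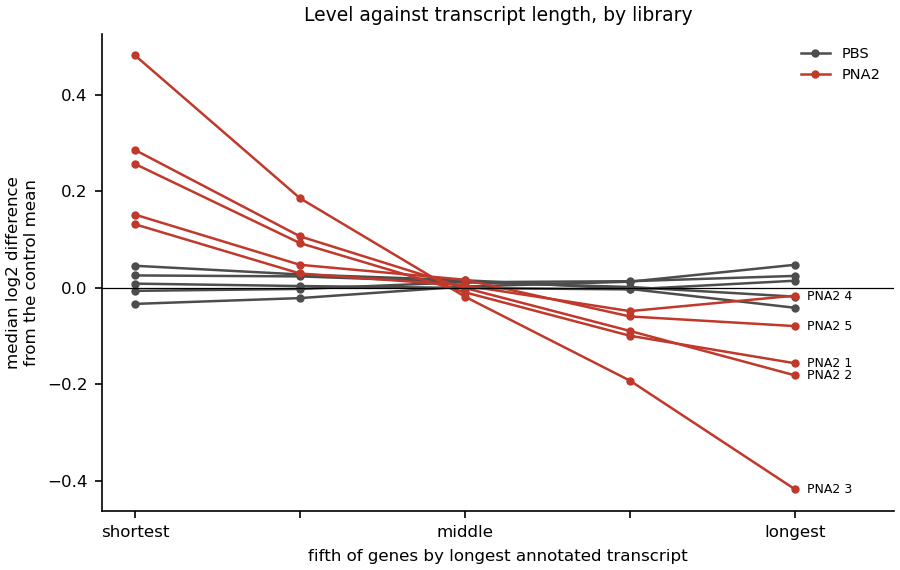
Median log2 difference from the control mean (vertical axis) in 5 equal groups of genes by transcript length (horizontal axis, shortest to longest), 1 line per library. The 5 PBS lines stay within -0.041 to 0.048, while the PNA2 lines run from 0.132 to 0.482 in the shortest group down to -0.016 to -0.417 in the longest.

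MYC, the labelled target (ENSG00000136997, chr8:127735434-127741434, plus strand, GRCh38 with GENCODE 29), was not called lower. Its level was 1121, 2321, 2035, 2845 and 826.4 in PBS replicates 1 to 5 and 2007, 2032, 459.9, 1966 and 1809 in PNA2-labelled replicates 1 to 5. The groups overlapped widely: replicate 3 was the lowest PNA2-labelled library and replicates 1, 2, 4 and 5 lay within the PBS range. The means were 1830 ± 840.4 and 1655 ± 673.6 (SD, n = 5 each; log2 change -0.18, 95% interval -1.15 to 0.79, adjusted p = 0.794), and the exact two-sided permutation p was 0.706. Since the MYC level does not bear out the label, the groups are called by their labels throughout. The sign depended on single libraries, at 0.015 without control replicate 4 and 0.237 without PNA2 replicate 3. Of the 10 network members tested, MNT, a repressor that pairs with MAX, was the single call (log2 change -0.34, SE 0.08, adjusted p = 0.0116), and it was not called with the length trend removed (-0.23, adjusted p = 0.0764). The partner MAX (log2 change -0.25, 95% interval -0.70 to 0.19, adjusted p = 0.382) and the antagonists MXD1 (-0.39), MXD4 (0.22) and MXI1 (0.27) were not called. Network members called higher numbered 1 with the length trend removed and 1 without PNA2 replicate 3 or 5. Network members called lower numbered 2 with equal library totals and 0 with the length trend removed.

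Known MYC-activated genes were mostly not called. Of 50 tested, 4 were higher and 10 lower, against 12.1% and 11.7% of all genes, with a median of -0.08. MYC-activated genes called lower numbered 19 with equal library totals and 6 without control replicate 5. MYC-activated genes called higher numbered 2 with equal library totals. TFRC, the transferrin receptor (-0.48), CBX3, a heterochromatin protein (-0.47), and PLK4, the centriole duplication kinase (-0.43), fell. AIMP2, a scaffold of the tRNA synthetase complex (0.45), and PHB2, prohibitin 2 of the inner mitochondrial membrane (0.39), rose, and neither was called with the length trend removed. ODC1, the first enzyme of polyamine synthesis, rose by a log2 change of 0.26, which was not called with equal totals (0.13, adjusted p = 0.13) or after quantile normalization (0.10, adjusted p = 0.228).

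Genes that MYC represses gave 6 higher and 0 lower of 20 (median 0.14). Of genes lower there were 1 at an unadjusted p under 0.05, 0 by edgeR and 0 by DESeq2. TSC22D3, the glucocorticoid-induced leucine zipper (ENSG00000157514, chrX:107713221-107777342, minus strand), stood at 73.76, 71.26, 86.76, 77.66 and 70.22 in PBS replicates 1 to 5 and 156.2, 158.3, 145, 156.8 and 167.3 in PNA2-labelled replicates 1 to 5. Every PNA2-labelled library was above every PBS library (log2 change 1.04, SE 0.11, adjusted p = 0.000204). An exon of TSC22D3 overlaps NCBP2L on the opposite strand, so its level is uncertain. KLF2, a quiescence factor of lymphocytes, rose by 0.64, DDIT4, an inhibitor of mTORC1, by 0.56, and SESN2, sestrin 2, by 0.42 on the log2 scale. Genes repressed by MYC called lower numbered 2 with equal library totals and 1 without PNA2 replicate 5.

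The E-box CACGTG, which is its own reverse complement, was searched in the 250 bases before the start of each gene in the RefSeq promoter table (GRCh38.p14), where 9736 of the 11985 genes tested had an entry. It was present in 9.06% of genes called higher (108 of 1192), 9.94% of those called lower (113 of 1137), 9.11% of all genes tested, 6.49% of all 27305 windows in the table and 29.3% of the MYC-activated genes (12 of 41). Called genes thus held the motif at close to the share of all genes tested in both directions. Windows are shown to place the motif, with each CACGTG in capitals and the rest in lower case, 5′ to 3′ on the strand of the gene. They are from list members that were named by rule, hold the motif and kept their call without each single library. Of these, the 2 that rose most and the 2 that fell most were taken. List members not named by rule were not compared for this choice. BRCA2, a larger decrease that is in none of the lists, also holds the motif.
ACTG1, GRCh38.p14 chr17:81512800-81513049, minus strand: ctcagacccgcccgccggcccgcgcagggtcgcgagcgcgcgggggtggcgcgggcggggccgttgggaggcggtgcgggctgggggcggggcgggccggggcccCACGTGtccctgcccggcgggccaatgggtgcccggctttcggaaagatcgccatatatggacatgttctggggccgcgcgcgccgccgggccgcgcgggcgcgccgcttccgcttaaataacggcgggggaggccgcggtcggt
NOP10, GRCh38.p14 chr15:34343137-34343386, minus strand: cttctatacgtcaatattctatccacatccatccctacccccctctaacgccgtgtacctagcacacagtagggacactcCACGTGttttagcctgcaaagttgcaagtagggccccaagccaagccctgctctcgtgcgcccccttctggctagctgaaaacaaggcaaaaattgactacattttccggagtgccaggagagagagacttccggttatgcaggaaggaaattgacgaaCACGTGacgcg
PNISR, GRCh38.p14 chr6:99425309-99425558, minus strand: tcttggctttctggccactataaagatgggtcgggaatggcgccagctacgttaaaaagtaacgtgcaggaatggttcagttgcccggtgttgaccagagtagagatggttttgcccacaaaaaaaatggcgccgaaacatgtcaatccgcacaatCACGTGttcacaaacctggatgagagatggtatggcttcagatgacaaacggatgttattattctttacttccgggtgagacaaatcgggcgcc
HNRNPH3, GRCh38.p14 chr10:68331443-68331692, plus strand: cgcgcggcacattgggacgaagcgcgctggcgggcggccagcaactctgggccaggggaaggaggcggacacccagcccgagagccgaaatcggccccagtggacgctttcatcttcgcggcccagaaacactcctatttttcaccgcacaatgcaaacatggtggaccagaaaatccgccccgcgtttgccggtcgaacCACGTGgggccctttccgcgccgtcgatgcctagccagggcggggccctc
ACTG1 is gamma actin, NOP10 a small protein of the box H/ACA particles that modify ribosomal RNA, PNISR a serine/arginine-rich speckle protein and HNRNPH3 a splicing regulator, and their values stand with their groups below. A match describes these letters and shows no binding.

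The largest increases were modest. The 12 called genes with the largest rise, among those with a mean level of at least 100 in a group and no overlap between groups, ran from 1.02 to 1.12 on the log2 scale. They held 2 mitochondrially encoded genes, MT-ND2 and MT-CO2, the small heat shock protein HSPB1 (1.08), the tubulin TUBA1A (1.09), the junction protein JUP, or plakoglobin (1.06), the calcium-binding S100A4 (1.06), the growth factor binding protein IGFBP4 (1.07) and the biliverdin reductase BLVRB (1.04). FMOD, fibromodulin, a proteoglycan of the extracellular matrix, stood at 38.32, 63.04, 48.01, 68.07 and 49.67 in PBS replicates 1 to 5 and 134.2, 119, 110.2, 126 and 89.32 in PNA2-labelled replicates 1 to 5 (log2 change 1.12, SE 0.18, adjusted p = 0.00203). The lowest PNA2-labelled library was above the highest PBS library. ARPC4 of the Arp2/3 complex (1.05) shares exons with the readthrough gene ARPC4-TTLL3. On the opposite strand DAZAP2 (1.05) overlaps SMAGP, TUBA1A overlaps TUBA1C and TSC22D3 overlaps NCBP2L, so each of these genes is uncertain. TSC22D3 completes the 12. Of the 188 rule-given genes that are named in the text, 90 have an exon that overlaps another annotated gene. The overlap is on the same strand for 34 and on the opposite strand for 73. Since the use of strand in counting is not given in the sources used here, reads in those stretches cannot be assigned with certainty.

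Under the same rule, which required no overlap between groups, the largest decreases were larger. YJEFN3 (ENSG00000250067, chr19:19528861-19537581, plus strand) stood at 329.5, 364.5, 302.4, 298.2 and 198.7 in PBS replicates 1 to 5 and 34.05, 89.24, 35.98, 16.35 and 148.9 in PNA2-labelled replicates 1 to 5 (log2 change -2.56, SE 0.48, adjusted p = 0.00377). All PNA2-labelled libraries were below all PBS libraries, but its exons overlap those of NDUFA13 on the same strand, so its reads are uncertain. BTAF1, which removes TATA-binding protein from DNA, stood at 2253, 2223, 2363, 2710 and 2326 in PBS replicates 1 to 5 and 839.3, 949.8, 635.3, 1371 and 1258 in PNA2-labelled replicates 1 to 5 (log2 change -1.28, SE 0.18, adjusted p = 0.00111). BRCA2, the homologous recombination mediator, had 420.5, 356.3, 350.4, 560.9 and 565.2 in PBS replicates 1 to 5 and 212.3, 151.9, 94.45, 266.4 and 261 in PNA2-labelled replicates 1 to 5 (log2 change -1.25, SE 0.27, adjusted p = 0.00759). Neither gene overlapped between groups, which the rule for naming them required. ODR4 (-1.32), the zinc finger gene ZNF121 (-1.23), MKI67 (-1.22) and STRIP2 (-1.21) also fell. The golgin genes GOLGA6L9 (-1.38), GOLGA8A (-1.33) and GOLGA8B (-1.30) have near-identical copies and are uncertain. NKTR, a cyclophilin-like natural killer cell recognition protein, fell by 1.81 on the log2 scale (adjusted p = 0.0304), and its call was lost without control replicate 1, 3, 4 or 5 or PNA2 replicate 1 (adjusted p up to 0.0731).

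**Figure D3:**
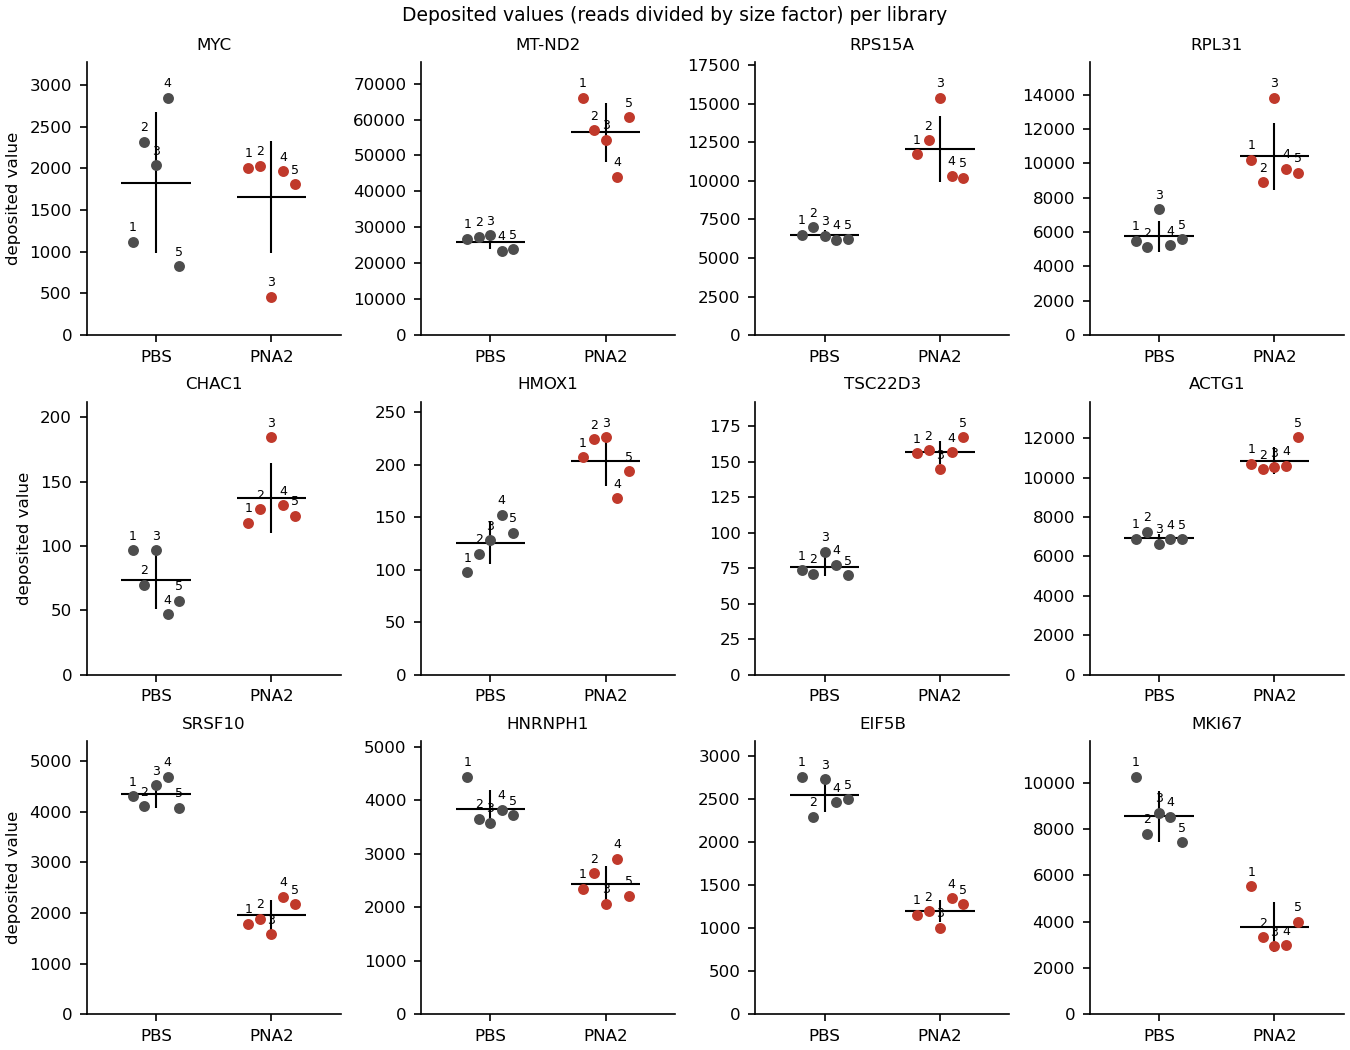
Levels (reads divided by the size factor, vertical axes from 0) of 12 genes in the PBS (grey) and PNA2-labelled (red) libraries, with replicate numbers, the mean (horizontal bar) and 1 SD (vertical bar). MYC overlaps between the groups. The other 11 genes, picked from called genes, do not, where 19.2% of all genes tested do not overlap. For MT-ND2, TSC22D3 and MKI67 the naming rule required this.

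The mitochondrial genome encodes 13 proteins of the respiratory chain, which are transcribed as long precursors from both strands and cut into messenger RNAs. All 13 rose, with a median log2 change of 0.82 and a range of 0.33 to 1.11. Their share of all protein-coding signal in percent was 4.548, 4.567, 4.633, 4.05 and 3.957 in PBS replicates 1 to 5 and 8.292, 7.341, 6.393, 6.153 and 8.297 in PNA2-labelled replicates 1 to 5. The lowest PNA2-labelled library, replicate 4, was above the highest PBS library. The mean shares were 4.351% ± 0.3204 and 7.295% ± 1.015 (SD, n = 5 each), and the exact two-sided permutation p was 0.00794, the smallest that 5 against 5 libraries can give and unchanged by adjustment over the 2 shares tested. These genes are a list chosen with earlier results of these data known, so this p describes the separation and is no independent support. The 10 most abundant genes of each library, which in all libraries held EEF1A1, EEF2 and 5 mitochondrially encoded genes, took 5.104% ± 0.2587 and 7.983% ± 0.834 (SD, n = 5 each; exact two-sided permutation p = 0.00794, adjusted 0.00794). They also held MT-CYB in 9 libraries and MT-ND5 in 8. The 2 shares thus hold many of the same genes, and the second p is not a separate result.

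MT-ND2, a complex I subunit (ENSG00000198763, chrM:4470-5511, plus strand), stood at 26850, 27450, 27860, 23510 and 23970 in PBS replicates 1 to 5 and 66030, 56950, 54340, 44120 and 60650 in PNA2-labelled replicates 1 to 5 (log2 change 1.11, SE 0.10, adjusted p = 8.73e-05). It more than doubled in 3 of the 5 PNA2-labelled libraries against the highest PBS library, and replicate 4 rose least. MT-CYB of complex III rose by 0.90, MT-CO2 of complex IV by 1.02 and MT-ND1 of complex I by 0.99. Mitochondrially encoded genes called higher numbered 5 after quantile normalization and 8 with the length trend removed. MT-CO2 (0.11, adjusted p = 0.107) and MT-ND1 (0.18, adjusted p = 0.0547) were among those not called after quantile normalization. All 13 lie in the shortest of the 5 groups by transcript length.

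Nuclear genes for the same respiratory complexes moved the same way, with smaller changes. Of 73 subunits, 41 rose and 0 fell (median 0.36, all genes -0.005; lower were 1 at an unadjusted p under 0.05, 0 by edgeR and 0 by DESeq2). Respiratory chain genes called higher numbered 22 with the length trend removed. Respiratory chain genes called lower numbered 1 with equal library totals and 2 with the length trend removed. ATP5PO, a stalk subunit of the ATP synthase, stood at 1447, 1820, 1487, 2122 and 2137 in PBS replicates 1 to 5 and 3138, 2179, 3895, 2851 and 3056 in PNA2-labelled replicates 1 to 5 (log2 change 0.74, SE 0.16, adjusted p = 0.00682). The groups did not overlap. COX6B1 of cytochrome c oxidase rose by 0.67, and NDUFA2 of complex I by 0.72, the latter without a call once the length trend was removed (0.33, adjusted p = 0.0676). Factors that transcribe and stabilise mitochondrial RNA had no member called higher: of 21 tested, 0 were higher with limma (0 at an unadjusted p under 0.05, 0 by edgeR and 0 by DESeq2) and 6 lower (median -0.17). Mitochondrial transcription and RNA stability genes called lower numbered 12 with equal library totals. POLG2, counted among the 6 lower, is the accessory subunit of the mitochondrial DNA polymerase and so not itself an RNA factor. It stood at 297.9, 263.1, 275.4, 470.7 and 302.3 in PBS replicates 1 to 5 and 141.2, 154, 145, 191.4 and 180.4 in PNA2-labelled replicates 1 to 5 (log2 change -0.96, SE 0.16, adjusted p = 0.00232). FASTKD1, an RNA-binding FASTK family protein (-0.65), and MTERF2, of the mitochondrial termination factor family (-0.62), also fell.

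Mitochondrial ribosomal proteins, which build the ribosome inside the organelle, gave 20 higher and 2 lower of 62 (median 0.26). Mitochondrial ribosomal proteins called higher numbered 9 with equal library totals, 2 with the length trend removed and 11 to 13 without control replicate 1 or 4 or PNA2 replicate 1 or 2. Mitochondrial ribosomal proteins called lower numbered 1 after quantile normalization, 0 without control replicate 2 and PNA2 replicate 3 and 0 to 1 with any single library left out. 44 of the 62 are in the shortest group by length. MRPS18A (0.60), MRPL37 (0.59) and MRPL23 (0.53) rose and none of these 3 was called with the length trend removed.

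**Figure D4:**
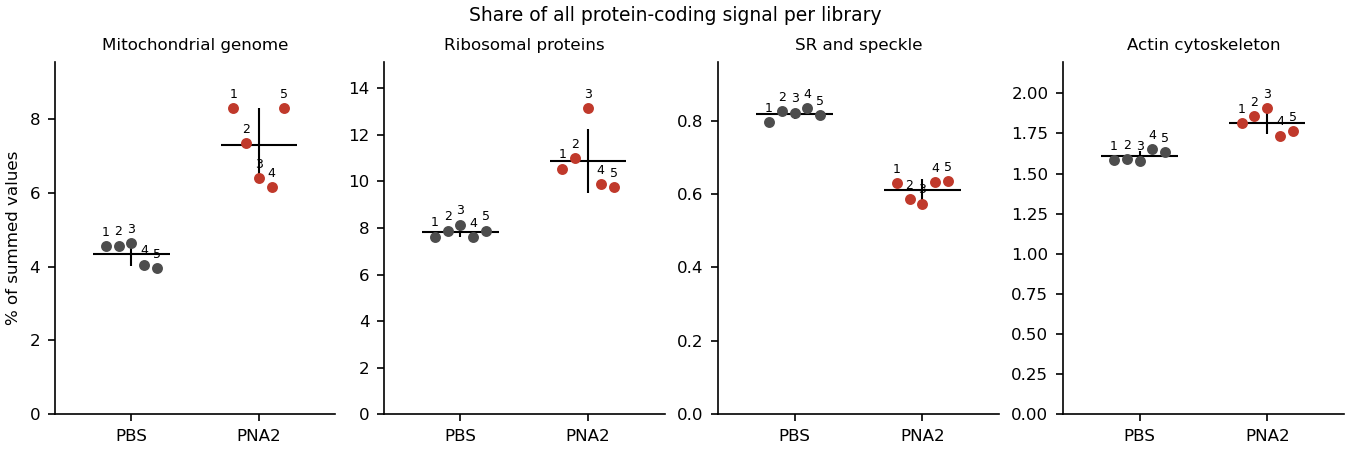
Share of the summed protein-coding levels in percent (vertical axes from 0) taken by 4 gene groups in each library, with replicate numbers, mean and 1 SD. The mitochondrial genome, ribosomal protein and actin shares are higher and the SR and speckle share lower in every PNA2-labelled library than in any PBS library.

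Ribosomal proteins form the cytosolic ribosome together with ribosomal RNA, and their messenger RNAs are short, abundant and translated under control of mTOR. Nearly all of them rose: 44 of 47 large subunit genes (median 0.59) and 31 of 32 small subunit genes (median 0.61) rose. None fell with limma (0 at an unadjusted p under 0.05, 0 by edgeR and 0 by DESeq2 in each subunit). Their share of all signal in percent was 7.63, 7.884, 8.148, 7.604 and 7.875 in PBS replicates 1 to 5 and 10.54, 11, 13.15, 9.881 and 9.747 in PNA2-labelled replicates 1 to 5. PNA2 replicate 3 was highest, and the lowest PNA2-labelled library stood above the highest PBS library. With the length trend removed 40 and 29 were still called higher, with medians of 0.43 and 0.39. That trend used the longest annotated transcript, which is 5620 bases for RPL28 and 3828 for RPS15A and need not be the one expressed. The part of length in the rise of these genes is therefore not settled by this run. Large subunit ribosomal proteins called higher numbered 29 after quantile normalization. Small subunit ribosomal proteins called higher numbered 18 after quantile normalization. Small subunit ribosomal proteins called lower numbered 1 after quantile normalization. Reads of these genes can be shared with their many processed pseudogenes, and how the counting treated such reads is not given in the sources used here.

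RPS15A of the small subunit (ENSG00000134419, chr16:18781295-18790383, minus strand) stood at 6513, 7008, 6438, 6189 and 6197 in PBS replicates 1 to 5 and 11710, 12640, 15370, 10340 and 10190 in PNA2-labelled replicates 1 to 5 (log2 change 0.88, SE 0.10, adjusted p = 0.00045). RPL31 of the large subunit stood at 5490, 5117, 7351, 5245 and 5598 in PBS replicates 1 to 5 and 10210, 8907, 13820, 9696 and 9449 in PNA2-labelled replicates 1 to 5 (log2 change 0.85, SE 0.13, adjusted p = 0.00152). In both genes replicate 3 had the highest level of the PNA2-labelled libraries and the groups did not overlap. RPS19 (0.84), RPS21 (0.83), RPS15 (0.79), RPL28 (0.76) and RPL27 (0.75) rose by similar amounts on the log2 scale.

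In the machinery that makes ribosomes more genes fell than rose. Of 38 ribosome biogenesis and RNA polymerase I genes, 3 rose and 12 fell (median -0.11), against 11.7% of all genes lower. Ribosome biogenesis genes called lower numbered 19 with equal library totals. Ribosome biogenesis genes called higher numbered 1 with the length trend removed and 5 without PNA2 replicate 4. LTV1, an assembly factor of the small subunit (-0.52), WDR75 (-0.52) and HEATR1 (-0.48), which act in transcription and processing of pre-ribosomal RNA, and TAF1D, a subunit of the RNA polymerase I factor SL1 (-0.48), fell. HEATR1 stood at 1688, 1592, 1632, 1727 and 1638 in PBS replicates 1 to 5 and 1119, 1155, 943.4, 1476 and 1318 in PNA2-labelled replicates 1 to 5 (log2 change -0.48, SE 0.11, adjusted p = 0.00832). No PNA2-labelled library reached the PBS range. NOP10 (0.62) and NHP2 (0.45), both proteins of the box H/ACA particles, rose, and neither was called with the length trend removed.

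Translation factors split. Of 44, 13 rose and 7 fell. Translation factors called lower numbered 11 with equal library totals, 4 with the length trend removed and 3 to 4 without control replicate 1, 3, 4 or 5 or PNA2 replicate 1 or 2. EIF5B, which joins the ribosomal subunits at initiation (ENSG00000158417, chr2:99337353-99401326, plus strand), stood at 2760, 2295, 2730, 2466 and 2503 in PBS replicates 1 to 5 and 1156, 1198, 1006, 1350 and 1278 in PNA2-labelled replicates 1 to 5 (log2 change -1.09, SE 0.09, adjusted p = 5.22e-05). The highest PNA2-labelled library was well under the lowest PBS library. EIF4A2, an RNA helicase of initiation (-0.68), and EEF2K, the kinase that inhibits elongation factor 2 (-0.43), also fell. EIF4EBP1, the mTOR-regulated inhibitor of the cap-binding factor eIF4E, stood at 516.3, 542.7, 509.6, 492.8 and 556.7 in PBS replicates 1 to 5 and 917.4, 992.3, 1256, 715.6 and 743.4 in PNA2-labelled replicates 1 to 5 (log2 change 0.79, SE 0.14, adjusted p = 0.00275). The eIF3 subunits EIF3K (0.57) and EIF3L (0.50) rose. Aminoacyl-tRNA synthetases, which charge transfer RNAs, gave 1 higher and 0 lower of 20 (lower were 3 at an unadjusted p under 0.05, 0 by edgeR and 1 by DESeq2), the single call being KARS (0.31), which was lost with equal totals (0.18, adjusted p = 0.0812). Synthetase genes called higher numbered 0 with equal library totals, 2 without control replicate 2 and PNA2 replicate 3 and 2 to 3 without control replicate 2 or PNA2 replicate 4 or 5. Synthetase genes called lower numbered 6 with equal library totals, 1 after quantile normalization, 1 without control replicate 2 and PNA2 replicate 3 and 1 to 2 without PNA2 replicate 3, 4 or 5.

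SR proteins bind exonic enhancers and help place the spliceosome, and many of them gather in nuclear speckles. Of the lists described here they had the largest share of members lower: 19 of 30 fell and 1 rose (median -0.41, against 11.7% lower of all genes). Their share of all signal in percent was 0.7962, 0.8262, 0.8226, 0.8345 and 0.8155 in PBS replicates 1 to 5 and 0.6301, 0.5866, 0.5734, 0.6324 and 0.6356 in PNA2-labelled replicates 1 to 5. The groups did not overlap. With the length trend removed 18 were lower and 1 higher.

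SRSF10, an SR protein that can repress splicing (ENSG00000188529, chr1:23964804-23980927, minus strand), stood at 4299, 4106, 4520, 4684 and 4078 in PBS replicates 1 to 5 and 1784, 1886, 1580, 2318 and 2176 in PNA2-labelled replicates 1 to 5 (log2 change -1.17, SE 0.10, adjusted p = 6.84e-05). LUC7L3, a U1 snRNP-associated protein, stood at 2278, 2679, 2538, 2613 and 2297 in PBS replicates 1 to 5 and 1270, 1491, 1290, 1365 and 1410 in PNA2-labelled replicates 1 to 5 (log2 change -0.86, SE 0.07, adjusted p = 6.65e-05). PNISR stood at 947.4, 915.4, 903.8, 923.2 and 904.4 in PBS replicates 1 to 5 and 542.8, 455.8, 453.1, 548.2 and 642.7 in PNA2-labelled replicates 1 to 5 (log2 change -0.81, SE 0.10, adjusted p = 0.000505). In SRSF10 and PNISR replicate 3 was the lowest PNA2-labelled library, and none of these 3 genes overlapped between groups. U2AF1, the factor that recognises the 3′ splice site, fell by 1.04 on the log2 scale, but it has a near-identical copy in the reference, which makes its level uncertain. The single member that rose was SRSF3 (log2 change 0.37, SE 0.10, adjusted p = 0.0178), which was not called with equal totals (0.24, adjusted p = 0.0743) or without control replicate 2 and PNA2 replicate 3 (0.31, adjusted p = 0.0648).

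The hnRNP proteins, which coat nascent RNA and often act against SR proteins, gave 12 lower and 3 higher of 29 (median -0.17). Members of the hnRNP list called higher numbered 1 after quantile normalization. HNRNPH1 stood at 4438, 3653, 3578, 3826 and 3723 in PBS replicates 1 to 5 and 2350, 2634, 2062, 2907 and 2218 in PNA2-labelled replicates 1 to 5 (log2 change -0.67, SE 0.10, adjusted p = 0.00139). HNRNPH3 (-0.58), HNRNPDL (-0.53) and SYNCRIP (-0.45) fell with it. The poly(C)-binding proteins PCBP1 (0.35) and PCBP2 (0.28) rose, PCBP2 without a call after quantile normalization (0.14, adjusted p = 0.0619).

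RNA polymerase II and Mediator genes went both ways, with 6 higher and 4 lower of 34 (17.6% and 11.8%). The small polymerase subunits POLR2J (0.61) and POLR2I (0.52) rose, POLR2I without a call with the length trend removed. The cyclins of the elongation factor P-TEFb, CCNT2 (-0.78) and CCNT1 (-0.39), its inhibitor HEXIM1 (-0.48) and the Mediator subunit MED23 (-0.61) fell. Polymerase II and Mediator genes called higher numbered 3 with equal library totals and 3 without control replicate 1 or 4. Polymerase II and Mediator genes called lower numbered 10 with equal library totals. Chromatin regulators gave 1 higher and 4 lower of 38, with the remodeller CHD1 at -0.60, the Polycomb subunit EED at -0.35 and the deacetylase HDAC5 at 0.52. Chromatin regulators called lower numbered 14 with equal library totals, 7 after quantile normalization and 2 with the length trend removed. Chromatin regulators called higher numbered 2 with the length trend removed.

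Numbered ZNF genes, mostly KRAB zinc finger repressors, are a list added after the values were seen. Of 419 tested, 68 fell and 21 rose (16.2% and 5.01%, median -0.18). ZNF genes called lower numbered 109 with equal library totals. ZNF genes called higher numbered 8 with equal library totals and 11 to 13 without control replicate 1, 3, 4 or 5 or PNA2 replicate 1 or 2. ZNF154 (-1.20), ZNF121 (-1.23) and ZNF891 (-1.05) were among the largest decreases.

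**Figure D5:**
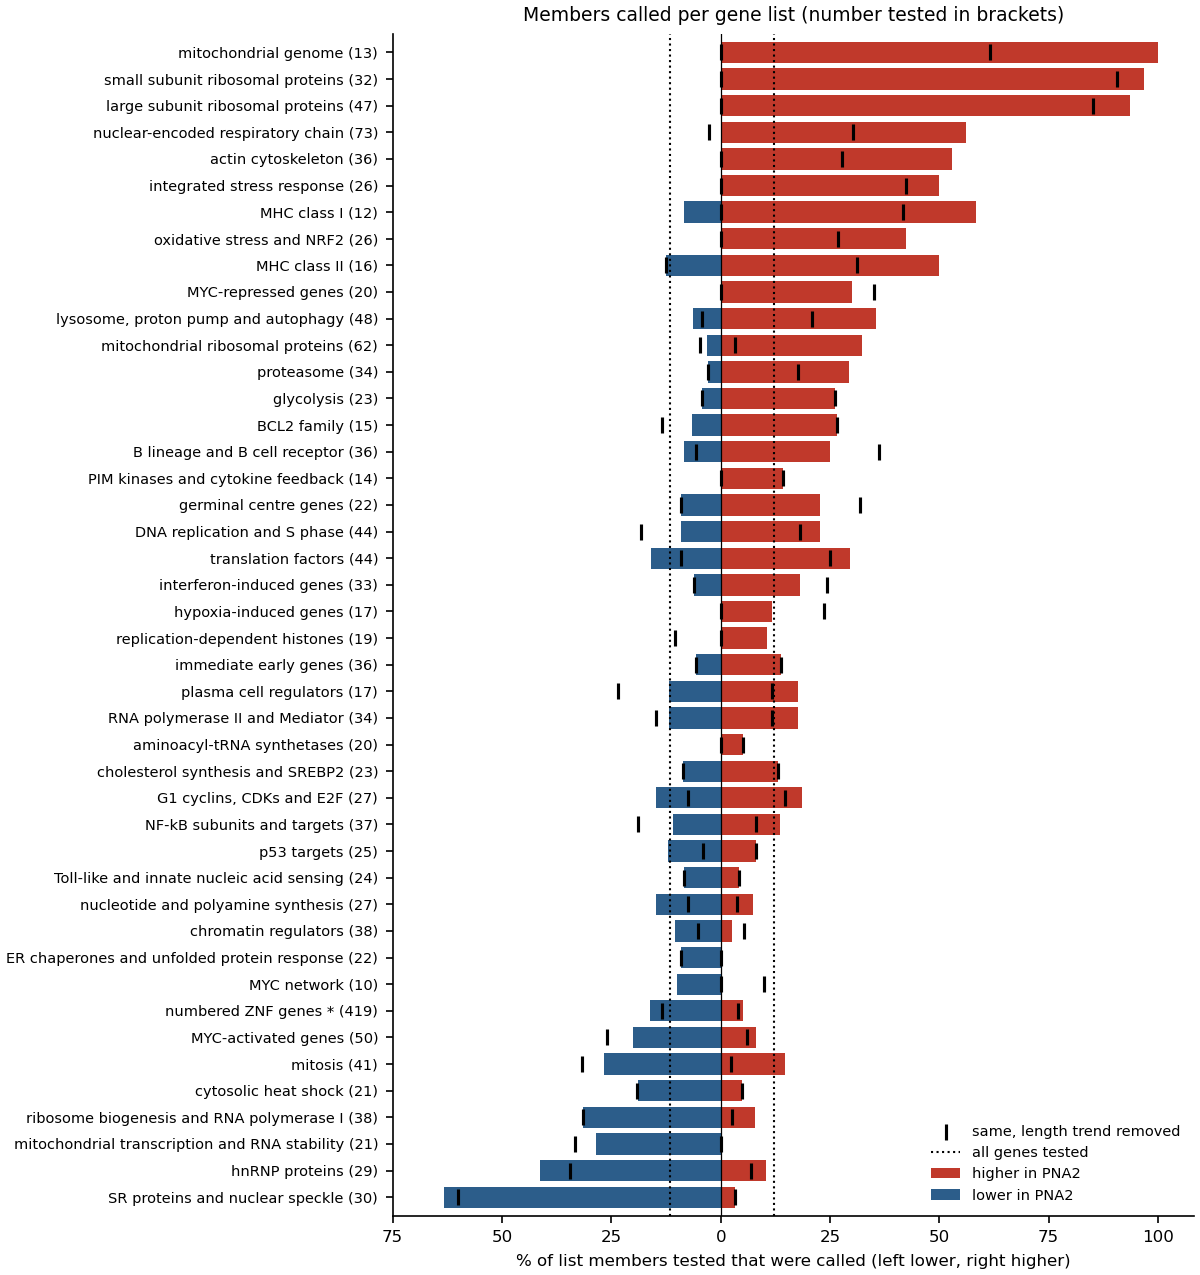
Percent of tested members of each gene list called higher (red, right) or lower (blue, left) in the PNA2-labelled libraries, with the number tested in brackets and the list added later marked *. Dotted lines give all genes tested (12.1% higher, 11.7% lower), and black ticks the same percent with the length trend removed, which stand for 2 of 62 mitochondrial ribosomal proteins higher against 20 before.

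Among the stress programmes, the integrated stress response had the largest share of members called. In it, phosphorylated eIF2 favours translation of ATF4, which induces genes for amino acid supply and stress signalling. Of 26 genes 13 rose and 0 fell with limma (median 0.29; lower were 1 at an unadjusted p under 0.05, 0 by edgeR and 1 by DESeq2). Integrated stress response genes called higher numbered 7 with equal library totals. Integrated stress response genes called lower numbered 3 with equal library totals and 2 without PNA2 replicate 4. CHAC1, which degrades glutathione, stood at 96.75, 69.89, 96.87, 46.98 and 57.38 in PBS replicates 1 to 5 and 118.2, 128.5, 184.4, 131.8 and 123.5 in PNA2-labelled replicates 1 to 5 (log2 change 0.93, SE 0.21, adjusted p = 0.0103). The lowest PNA2-labelled library was above the highest PBS library. TRIB3, a pseudokinase that restrains AKT and ATF4 (0.68), DDIT4 (0.56) and the transcription factor CEBPB (0.51) rose too. The unfolded protein response of the endoplasmic reticulum, a neighbouring pathway, gave 0 higher with limma (1 at an unadjusted p under 0.05, 0 by edgeR and 0 by DESeq2) and 2 lower of 22, namely the chaperones HSP90B1 (-0.47) and HYOU1 (-0.29). Unfolded protein response genes called higher numbered 1 without PNA2 replicate 1, 4 or 5. Unfolded protein response genes called lower numbered 7 with equal library totals, 4 after quantile normalization and 4 without PNA2 replicate 4. Among 21 cytosolic heat shock genes HSPB1 was the single gene higher, and 4 fell, with CHORDC1, an HSP90 partner, at -0.71 and HSPH1, a nucleotide exchange factor, at -0.32. Heat shock genes called lower numbered 7 with equal library totals, 7 after quantile normalization, 2 without control replicate 2 and PNA2 replicate 3 and 2 without control replicate 1, 2 or 3 or PNA2 replicate 1 or 2. Heat shock genes called higher numbered 2 without PNA2 replicate 2.

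Genes of iron handling and antioxidant defence, many of them induced by the transcription factor NRF2, gave 11 higher and 0 lower of 26 (median 0.32; lower were 0 at an unadjusted p under 0.05, 0 by edgeR and 0 by DESeq2). Antioxidant genes called higher numbered 7 with the length trend removed. HMOX1, heme oxygenase 1 (ENSG00000100292, chr22:35380361-35394214, plus strand), stood at 97.71, 115.1, 128, 152.4 and 135.3 in PBS replicates 1 to 5 and 207.3, 224.2, 226, 168.3 and 193.5 in PNA2-labelled replicates 1 to 5 (log2 change 0.70, SE 0.14, adjusted p = 0.00464). The groups did not overlap. FTL, the ferritin light chain (0.91), and GPX4, which reduces lipid peroxides (0.66), rose, and FTH1, the ferritin heavy chain (0.58), rose without a call once the length trend was removed (0.29, adjusted p = 0.117). Proteasome genes gave 10 higher and 1 lower of 34. Proteasome genes called higher numbered 6 with equal library totals and 6 with the length trend removed. Proteasome genes called lower numbered 2 with equal library totals. The immunoproteasome subunits PSMB8 (0.60) and PSMB9 (0.54) rose most, and the lid subunit PSMD12 fell by 0.52 on the log2 scale.

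The actin cytoskeleton list held 19 higher and 0 lower of 36 (median 0.29; lower were 0 at an unadjusted p under 0.05, 0 by edgeR and 0 by DESeq2). Actin genes called higher numbered 10 with the length trend removed. Actin genes called lower numbered 2 with equal library totals and 1 after quantile normalization. ACTG1 (ENSG00000184009, chr17:81509971-81523847, minus strand) stood at 6896, 7244, 6649, 6882 and 6879 in PBS replicates 1 to 5 and 10700, 10430, 10520, 10610 and 12040 in PNA2-labelled replicates 1 to 5 (log2 change 0.65, SE 0.06, adjusted p = 6.84e-05). Replicate 5 was the highest and no PNA2-labelled library entered the PBS range. ARPC1B of the Arp2/3 complex (0.70) and TMSB10, a thymosin that binds actin monomers (0.69), also rose. The share of all signal in percent was 1.583, 1.589, 1.581, 1.653 and 1.632 in PBS replicates 1 to 5 and 1.814, 1.856, 1.908, 1.735 and 1.764 in PNA2-labelled replicates 1 to 5.

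In central metabolism, glycolysis gave 6 higher and 1 lower of 23. The aldolase ALDOC (0.60) and the mutase PGAM1 (0.35) rose and kept their call in every alternative run. GAPDH (0.54) and ENO1, enolase (0.36), rose with the deposited size factors, but after quantile normalization their changes were -0.11 and -0.16, so no direction is given for them. HK2, hexokinase 2, was lower by 0.30 on the log2 scale, without a call with the length trend removed. Glycolysis genes called higher numbered 3 after quantile normalization. Glycolysis genes called lower numbered 2 with equal library totals, 3 after quantile normalization and 2 without PNA2 replicate 3. Of 17 hypoxia-induced genes 2 rose, with PGK1, phosphoglycerate kinase, at 0.28. Hypoxia genes called higher numbered 1 with equal library totals, 4 with the length trend removed and 1 without control replicate 1 or PNA2 replicate 2.

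Cholesterol synthesis gave 3 higher and 2 lower of 23 (13% and 8.7%, against 12.1% and 11.7% of all genes). Cholesterol genes called lower numbered 1 without control replicate 1 or PNA2 replicate 1. HMGCS1, an early enzyme of the pathway, stood at 1313, 1131, 1493, 1299 and 1189 in PBS replicates 1 to 5 and 1743, 1849, 1511, 2202 and 1893 in PNA2-labelled replicates 1 to 5 (log2 change 0.51, SE 0.11, adjusted p = 0.00586), and STARD4, a cholesterol carrier, fell by 0.64 on the log2 scale. Nucleotide and polyamine synthesis gave 2 higher and 4 lower of 27, and of the genes lower the purine enzyme PFAS (-0.40) held without each library. Nucleotide and polyamine genes called lower numbered 2 with the length trend removed and 1 to 2 without control replicate 3, 4 or 5 or PNA2 replicate 1. Nucleotide and polyamine genes called higher numbered 0 with equal library totals, 0 after quantile normalization, 1 with the length trend removed, 1 without control replicate 2 and PNA2 replicate 3, 1 without control replicate 1, 2, 4 or 5 or PNA2 replicate 1, 2 or 3 and 6 without PNA2 replicate 4. Lysosomal, proton pump and autophagy genes gave 17 higher and 3 lower of 48. Lysosomal and autophagy genes called higher numbered 6 with equal library totals, 10 with the length trend removed, 10 without control replicate 2 and PNA2 replicate 3 and 10 to 11 without control replicate 1, 4 or 5 or PNA2 replicate 1 or 2. Lysosomal and autophagy genes called lower numbered 1 without control replicate 4. NPC2, which hands on cholesterol in the lysosome (0.75), PSAP, the precursor of the saposins (0.62), and ATP6V1F of the proton pump (0.62) rose, while the autophagy gene ATG16L1 (-0.41) fell.

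Cell division genes did not move one way. Of 44 replication and S phase genes 10 rose and 4 fell. Replication and S phase genes called higher numbered 6 with equal library totals and 6 without control replicate 1 or 2 or PNA2 replicate 2. Replication and S phase genes called lower numbered 11 with equal library totals, 8 with the length trend removed, 2 without control replicate 2 and PNA2 replicate 3 and 2 without control replicate 1 or 3 or PNA2 replicate 1. RFC2 of the clamp loader (0.65), RPA2 of the single-strand binding complex (0.41), the licensing factor CDT1 (0.38) and GINS2 of the replicative helicase (0.34) rose. ORC6 of the origin recognition complex stood at 994.3, 1225, 1017, 1122 and 1053 in PBS replicates 1 to 5 and 881.3, 525.9, 525.1, 603 and 586.7 in PNA2-labelled replicates 1 to 5 (log2 change -0.82, SE 0.13, adjusted p = 0.00216). POLE, the leading-strand polymerase, fell with it (-0.49).

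Mitosis genes gave 6 higher and 11 lower of 41 (median -0.12). Mitosis genes called higher numbered 3 with equal library totals and 1 with the length trend removed. Mitosis genes called lower numbered 20 with equal library totals, 6 to 7 without control replicate 1 or PNA2 replicate 2 and 17 without PNA2 replicate 4. MKI67, the proliferation antigen that coats mitotic chromosomes (ENSG00000148773, chr10:128096659-128126385, minus strand), stood at 10260, 7803, 8710, 8535 and 7423 in PBS replicates 1 to 5 and 5540, 3325, 2936, 2970 and 4001 in PNA2-labelled replicates 1 to 5 (log2 change -1.22, SE 0.16, adjusted p = 0.000837). Replicate 1 was the highest of the PNA2-labelled libraries and still below every PBS library, which the rule for the largest decreases required. Its longest transcript is 12678 bases, and with the length trend removed its change was -1.02, adjusted p = 0.00205. HMMR, a spindle assembly protein (-0.61), and ECT2, which drives cytokinesis (-0.48), fell. CCNB2, a B-type cyclin (0.38), PTTG1, or securin (0.48), UBE2C, the ubiquitin-conjugating enzyme of the anaphase-promoting complex (0.43), and its activator CDC20 (0.34) rose, and of these 4 CCNB2 alone kept its call with the length trend removed.

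Of 27 G1 cyclins, CDKs and E2F genes 5 rose and 4 fell (18.5% and 14.8%, against 12.1% and 11.7% of all genes). G1 genes called higher numbered 3 with equal library totals and 3 without control replicate 1. G1 genes called lower numbered 9 with equal library totals, 2 with the length trend removed, 1 without control replicate 2 and PNA2 replicate 3 and 0 to 2 without control replicate 1, 3, 4 or 5 or PNA2 replicate 1, 2 or 3. CDKN2A, which encodes the inhibitor p16 and ARF (0.66), and TFDP1, the E2F partner (0.49), rose. Among 19 replication-dependent histone genes HIST1H2BK (0.35) and HIST1H1C (0.34) were called higher, and both had the other sign with the length trend removed (-0.21 and -0.10). Histone genes called higher numbered 0 with equal library totals and 0 with the length trend removed. Histone genes called lower numbered 1 with equal library totals, 2 with the length trend removed and 1 without control replicate 4. The p53 targets gave 2 higher and 3 lower of 25 (8% and 12%). Targets of p53 called higher numbered 4 to 5 without PNA2 replicate 3 or 4. Targets of p53 called lower numbered 5 with equal library totals, 1 with the length trend removed, 1 without control replicate 2 and PNA2 replicate 3 and 1 without control replicate 1 or 5. SESN2 and BBC3, or PUMA (0.58), rose, and MDM2, the p53 ubiquitin ligase (-0.43), was lower without a call once the length trend was removed. In the BCL2 family 4 rose and 1 fell of 15: the cell death promoters BAD (0.72), BBC3 and BIK (0.54) rose, BMF rose by 0.26 without a call with equal totals, and the survival protein MCL1 stood at 17250, 14670, 16720, 17570 and 15760 in PBS replicates 1 to 5 and 12440, 13130, 12290, 13780 and 13440 in PNA2-labelled replicates 1 to 5 (log2 change -0.33, SE 0.06, adjusted p = 0.00397). The groups did not overlap. Members of the BCL2 family called lower numbered 4 with equal library totals, 2 after quantile normalization, 2 with the length trend removed and 2 without PNA2 replicate 1.

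B-cell identity genes gave 9 higher and 3 lower of 36. B-cell identity genes called lower numbered 5 with equal library totals. CD79A, a signalling chain of the B-cell receptor, stood at 7003, 6730, 6686, 6023 and 6634 in PBS replicates 1 to 5 and 12210, 11380, 13440, 9676 and 9907 in PNA2-labelled replicates 1 to 5 (log2 change 0.77, SE 0.09, adjusted p = 0.00048). VPREB3, of the surrogate light chain family (0.91), and CD180, a Toll-like receptor homologue (0.77), rose, and the transcription factor SPI1 (0.48) rose without a call with the length trend removed. MS4A1, which encodes CD20, stood at 2029, 2232, 2120, 2391 and 2083 in PBS replicates 1 to 5 and 1796, 1711, 1413, 1904 and 1809 in PNA2-labelled replicates 1 to 5 (log2 change -0.34, SE 0.09, adjusted p = 0.0164). TNFRSF13B, the receptor TACI, fell by 0.49 on the log2 scale. In bulk RNA, fewer cells of a kind and less RNA per cell cannot be told apart.

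Germinal centre genes gave 5 higher and 2 lower of 22 (22.7% and 9.09%, against 12.1% and 11.7% of all genes). LMO2 (0.77), the sphingosine receptor S1PR2 (0.48) and ASB13 (0.37) were higher. The glycosylase NEIL1 (-0.54) and MME, or CD10 (-0.39), were lower. Germinal centre genes called higher numbered 3 with equal library totals, 3 after quantile normalization and 3 without control replicate 5 or PNA2 replicate 2. Germinal centre genes called lower numbered 4 with equal library totals. Plasma cell regulators gave 3 higher and 2 lower of 17 (17.6% and 11.8%). Plasma cell regulators called higher numbered 1 with equal library totals. Plasma cell regulators called lower numbered 5 with equal library totals and 4 with the length trend removed. IRF4, which drives plasma cell formation, stood at 6445, 6575, 6534, 6703 and 6531 in PBS replicates 1 to 5 and 4800, 4864, 4441, 4768 and 4858 in PNA2-labelled replicates 1 to 5 (log2 change -0.47, SE 0.05, adjusted p = 0.000238). ELL2, an elongation factor for immunoglobulin messages, fell with it (-0.57).

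In both classes of antigen presentation genes more members rose than fell. MHC class II presents peptides to CD4 T cells, and 8 of 16 genes rose and 2 fell (median 0.32). MHC class II genes called higher numbered 5 with the length trend removed. CIITA, the master activator of the class, was among those lower, at 3241, 3320, 2931, 3100 and 3173 in PBS replicates 1 to 5 and 2381, 2149, 2049, 2211 and 2376 in PNA2-labelled replicates 1 to 5 (log2 change -0.50, SE 0.06, adjusted p = 0.000714). HLA-DOA rose (0.35), and HLA-DRB1 (0.35) and HLA-DRB5 (0.36), whose reads can be shared between similar genes, rose without a call once the length trend was removed. The invariant chain CD74 rose by 0.50 with the deposited size factors but was at -0.03, adjusted p = 0.686 after quantile normalization, so no direction is given for it. In MHC class I 7 of 12 rose and 1 fell, with the peptide transporter TAP1 (0.46) and the immunoproteasome subunits named above. MHC class I genes called higher numbered 4 with equal library totals. MHC class I genes called lower numbered 0 after quantile normalization, 0 with the length trend removed, 0 without control replicate 2 and PNA2 replicate 3 and 0 without control replicate 1, 2, 3, 4 or 5 or PNA2 replicate 2, 4 or 5.

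Interferon-induced genes gave 6 higher and 2 lower of 33 (18.2% and 6.06%). Interferon-induced genes called lower numbered 4 with equal library totals and 1 without control replicate 2, 3, 4 or 5 or PNA2 replicate 1 or 2. IFI6 (1.13), the antiviral membrane protein IFITM1 (1.01) and the ubiquitin-like ISG15 (0.97) rose, and STAT2 of the interferon-activated complex fell (-0.49). ISG15 stood at 58.43, 83.59, 90.13, 83.41 and 90.78 in PBS replicates 1 to 5 and 150.2, 157.2, 257.5, 143.3 and 113.8 in PNA2-labelled replicates 1 to 5 (log2 change 0.97, SE 0.21, adjusted p = 0.00696). The groups did not overlap. NF-kB genes gave 5 higher and 4 lower of 37 (13.5% and 10.8%), close to the 12.1% and 11.7% of all genes. NF-kB genes called higher numbered 2 with equal library totals, 3 with the length trend removed and 2 to 3 without control replicate 1, 3, 4 or 5 or PNA2 replicate 1, 2 or 3. NF-kB genes called lower numbered 7 with the length trend removed. The chemokine CCL22 (-1.13), the nuclear regulator NFKBIZ (-0.57), TRAF1 (-0.40) and the feedback inhibitor TNFAIP3, or A20 (-0.34), fell, and the ligand TNFSF9 (0.68) rose. Of 36 immediate early genes 5 rose and 2 fell (13.9% and 5.56%), with JUND (0.53), JUNB (0.40) and KLF2 higher. Immediate early genes called higher numbered 3 with equal library totals. Immediate early genes called lower numbered 6 with equal library totals, 1 after quantile normalization and 1 without control replicate 1, 2, 4 or 5 or PNA2 replicate 1. Among 14 PIM kinase and cytokine feedback genes 2 rose, led by SOCS1, an inhibitor of JAK signalling (0.53), and of 24 Toll-like and nucleic acid sensing genes 1 rose, TLR9 (0.41), and 2 fell. PIM and cytokine feedback genes called higher numbered 1 with equal library totals and 1 without control replicate 1, 3, 4 or 5 or PNA2 replicate 1, 2 or 5. PIM and cytokine feedback genes called lower numbered 2 with equal library totals and 1 without PNA2 replicate 5. Toll-like and sensing genes called higher numbered 2 without PNA2 replicate 5. Toll-like and sensing genes called lower numbered 5 with equal library totals, 1 after quantile normalization, 1 without control replicate 2 and PNA2 replicate 3 and 0 to 1 without control replicate 1, 2, 3 or 4 or PNA2 replicate 1, 2 or 3.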

How the data were processed

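RNA was sequenced from 5 PBS and 5 PNA2-labelled libraries of U2932 cells at a labelled 72 h. Per the labels' protocols, RNeasy extraction was followed by TruSeq stranded libraries, with total RNA and mRNA kits both named, read on a NextSeq 500. The submitters' processing notes name the build GRCh38 and, in no stated order, HTSeq 0.11.0, HISAT2 2.2.1, DESeq2, Trimmomatic and SAMtools 1.7, and how they treated strand and multiply mapped reads is not given in the sources used here. The deposited table holds normalized signal for 19836 genes, given there as protein-coding, in which the authors divided each library's counts by its own size factor (0.7297 to 1.1872, recovered from the steps between low values). Undoing this turned 100% of values into whole reads to within 0.01. All 10 sample columns were mapped by their titles. GENCODE 29, which held 19804 of the genes, gave positions and transcript lengths. Of the deposited symbols 406 differ from it, some of them altered as in PGK 1.00 for PGK1, and these were matched by gene ID.

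Genes with a level of 10 or more in at least 5 libraries were tested on log2(level + 1) with limma 3.58.1 (R 4.3.3, mean-variance trend, group alone, two-sided), with Benjamini-Hochberg adjustment over all 11985 genes tested, a threshold of 0.05 and no fold minimum. A fold change on this scale understates the change of low genes. The recovered reads were tested with edgeR 4.0.16 (quasi-likelihood, 1395 higher and 1442 lower) and DESeq2 1.42.0 (1693 and 1626) as alternatives. Of the limma calls, edgeR shared 1375 higher and 1361 lower. Single values per library used exact permutation tests over all arrangements of 5 against 5. The length trend was a lowess curve (span 0.3) of each library's deviation from the gene mean on log10 of the longest transcript, an alternative added after seeing the data, as was leaving out control replicate 2, the least deep, together with PNA2 replicate 3.

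The comparison, the 47 gene lists and the markers were chosen with earlier results of these data known, so lists are described by counts and medians beside all genes. No list was tested, apart from the summed share of the mitochondrially encoded genes. Genes are named by rule: the MYC network, the 12 largest called increases and 12 largest decreases with a mean level of 100 or more and no overlap between groups, and up to 4 called members of each list in each direction. Of the 245 genes this gives, 230 were called. For 47 of the called genes the call was lost or the change moved over 1.5 times without a single library. These 47 are counted with their lists but not named, apart from NKTR, a neighbour of YJEFN3 and, among the changes of sign, IKZF3. Some other genes that the rule gives are not reported here. Reads give counting precision only, and replicate spread sets every error printed. The limma and edgeR fits were tried on simulated counts with known changes before the real fits. Those counts took their means and dispersions from these data and held no length trend.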

Additional observations from a re-analysis of the deposited data

Results flagged for a closer look

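In each group of 5, the library farthest from the rest was compared with Dixon's limit, under which its gap to the nearest other library may take at most 0.71 of the range of the group at the 95% level. Of 388 groups tested (2 groups for each gene named and for the shares), 25 went past the limit (6.44%), where chance gives about 1 in 20. In PNA2-labelled replicate 1, a level far above the other PNA2-labelled libraries was found for ORC6 at 881.3 (others 525.1 to 603). In PNA2-labelled replicate 1, a level far below the other PNA2-labelled libraries was found for MXD1 at 56.08 (others 246.5 to 293.4). In PNA2-labelled replicate 3, a level far above the other PNA2-labelled libraries was found for BLVRB at 330.6 (others 204.9 to 234.4), CHAC1 at 184.4 (others 118.2 to 131.8), KLF2 at 281.1 (others 227.7 to 241.2) and RPL31 at 13820 (others 8907 to 10210). In PNA2-labelled replicate 3, a level far below the other PNA2-labelled libraries was found for IRF4 at 4441 (others 4768 to 4864), MED23 at 181 (others 308.5 to 345.3), MTERF2 at 59.59 (others 82.31 to 90.14) and MYC at 459.9 (others 1809 to 2032). In PNA2-labelled replicate 5, a level far above the other PNA2-labelled libraries was found for ACTG1 at 12040 (others 10430 to 10700). In control replicate 1, a level far above the other PBS libraries was found for HNRNPH1 at 4438 (others 3578 to 3826) and LMO2 at 402.3 (others 275.4 to 311.7). In control replicate 1, a level far below the other PBS libraries was found for DDIT4 at 575.7 (others 656 to 686.5) and ISG15 at 58.43 (others 83.41 to 90.78). In control replicate 2, a level far above the other PBS libraries was found for CBX3 at 3451 (others 2267 to 2594) and CDT1 at 1834 (others 1470 to 1555). In control replicate 2, a level far below the other PBS libraries was found for ELL2 at 372.7 (others 436.8 to 458.3). In control replicate 3, a level far above the other PBS libraries was found for RPL31 at 7351 (others 5117 to 5598). In control replicate 4, a level far above the other PBS libraries was found for BTAF1 at 2710 (others 2223 to 2363) and POLG2 at 470.7 (others 263.1 to 302.3). In control replicate 4, a level far below the other PBS libraries was found for COX6B1 at 1867 (others 2128 to 2202). In control replicate 5, a level far above the other PBS libraries was found for ARPC4 at 1973 (others 924 to 1076) and HLA-DOA at 844.4 (others 725.2 to 757.4). In control replicate 5, a level far below the other PBS libraries was found for CEBPB at 172.1 (others 210.6 to 226.3). Of these 25, 8 are levels of PNA2 replicate 3. Without that replicate the MYC change was 0.237. ARPC4 in control replicate 5 lies close to the PNA2-labelled levels, which run from 2046 to 2949.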

How the results depend on the processing

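The counts of genes called stayed within 1.5 times the main counts under every alternative run except equal library totals, which gave 823 higher and 2601 lower. Leaving out single libraries gave 1066 to 1671 genes higher and 996 to 1662 lower. Without control replicate 2 and PNA2 replicate 3 they were 1212 and 1242. With the replicate number as a block they were 1379 and 1390. Whether the numbers pair the samples was not settled. Same-numbered deviations correlated at -0.025, 0.097, 0.06, 0.108 and -0.044, and 5 of 10 libraries correlated best with their own number in the other group. Under the block the mitochondrially encoded share (difference of 2.945 percentage points) and the 10-gene share (2.879) had an exact paired p of 0.0625 by permutation over 32 sign flips, the smallest they can give. Without single libraries these differences ran from 2.694 to 3.23 and from 2.671 to 3.15, and the next 10 genes alone differed by 0.832. The MYC change ran from -0.43 to 0.237 without single libraries and was 0.359 without control replicate 2 and PNA2 replicate 3.

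Changes of sign among the named genes were few. With equal totals MXD3 was at -0.104 and MLX at -0.048. After quantile normalization GAPDH was at -0.115, ENO1 at -0.165, POU2AF1 at -0.033 and CD74 at -0.033. With the length trend removed MXD3 was at -0.097, MGA at 0.002, MLXIP at 0.032, HIST1H2BK at -0.205, HIST1H1C at -0.099 and IKZF3 at 0.018. Without single libraries MXD3 ran from -0.035 to 0.115 and MXD1 from -0.839 to 0.054 (without PNA2 replicate 1), and MYC was at 0.015 without control replicate 4. The causes were not tested. Of 230 called named genes 140 kept direction and call under all 22 alternatives. Fewer low-level genes can be called at this depth: 5.09% and 5.51% of the lowest of 5 equal groups by level were called higher and lower, against 21.1% and 13.9% of the highest.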
